A study of Mus musculus with 32 samples.

Results

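Naive B cells of mice labelled aPIK3CD, for activated PIK3CD, were compared with naive B cells of WT mice, 4 libraries against 4, which are 8 of the 32 libraries of the series. Libraries were assigned by their titles and by the matching names of the count columns. All mice were C57BL/6 animals aged 12 weeks with a genotype labelled AID-cre WT or AID-cre aPIK3CD, so the controls carried the cre as well. Spleens came from mice that had received NP-CGG with alum by the intraperitoneal route 14 days earlier. This antigen, a hapten on a carrier protein, needs T cell help to elicit antibody. For each library 500 cells were sorted straight into the buffer of the SMART-Seq v4 kit, which amplifies full-length cDNA from very little RNA. The other populations were dark zone and light zone germinal centre B cells and plasma cells. In 1 of the 4 naive aPIK3CD libraries, replicate 1, the genotype field reads AID-cre WT although the title and the column name give aPIK3CD, as it does for replicate 1 of the other populations, and results were also computed with replicate 1 counted as WT. The labels do not say that replicates are separate mice, so p-values measure the spread between these libraries, which may in part be technical. They also do not say how naive cells were gated or which change activates PIK3CD.

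PI3Kδ is the class I phosphoinositide 3-kinase that B cells use most downstream of the antigen receptor, and Pik3cd encodes its catalytic subunit p110δ. The lipid it makes, PIP3, recruits AKT, which raises mTORC1 activity and drives FOXO transcription factors out of the nucleus, and lipid phosphatases such as SHIP1 remove it again. In resting B cells FOXO1 sustains genes of lymphocyte homing and survival such as Klf2 and Ccr7. The AID-cre driver acts chiefly in antigen-activated and germinal centre B cells, and the labels do not say whether the allele had recombined in the sorted naive cells.

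Naive totals ranged from 1965329 to 2820830 counts in WT and from 2332364 to 2688981 in aPIK3CD (exact permutation p = 0.714, two-sided, where 4 against 4 libraries can reach 0.0286). Levels are given in CPM, counts scaled to a common library total. Correlations of log2 CPM between libraries had a median of 0.891 within WT, 0.883 within aPIK3CD and 0.888 between the genotypes. Counts per exonic base never exceeded 1.88 (Igkc, the kappa light chain constant gene). In 8 genes the highest library exceeded 1.5 counts per base, among them Ighm, Ighd and Cd74. All 8 had their highest CPM in WT replicate 1, the shallowest library, and 7 of the 8 had their lowest in WT replicate 2, the deepest. A bound of this kind would understate folds of abundant genes, and its part in the results was not tested. The dark zone library of WT replicate 3 held 25797 counts, against 1154809 to 1941224 in the other 7 dark zone libraries, so dark zone results are also given without it, a choice made after seeing the data.

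Follicular B cell genes dominated the markers examined. All 14 follicular B cell markers were measured, and their summed level was 9966 to 11245 CPM in WT and 10301 to 10960 CPM in aPIK3CD. Fcer2a, the low-affinity IgE receptor CD23 of follicular B cells, stood at 831, 845, 809 and 816 CPM in WT replicates 1 to 4 and at 784, 859, 921 and 904 CPM in aPIK3CD. The log2 fold changes of the 14 markers lay between -0.08 and 0.19, and the 95% interval of every one stayed within 2-fold. Cr2, the complement receptor CD21, had a log2 fold change of -0.08 (SE 0.12). Markers of other cells were present at low levels: the 10 T cell markers summed to 214 to 273 CPM in WT and 148 to 290 CPM in aPIK3CD, mostly Lck, and the 5 NK cell markers to 247 to 443 and 209 to 442 CPM. The neutrophil gene S100a9 and the precursor gene Igll1 had 0 counts in all 8 libraries. In bulk libraries, fewer cells of a type and less RNA per cell cannot be told apart.

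Of 10421 genes tested in naive B cells, 0 passed an adjusted p of 0.05 (0%, edgeR's quasi-likelihood test with Benjamini-Hochberg adjustment), and the smallest adjusted p was 0.9998, so every gene tested in this fit had an adjusted p of at least that value. Without adjustment, 319 genes (3.06%) had a p under 0.05, 140 (1.34%) of them higher in aPIK3CD and 179 (1.72%) lower. DESeq2 also called 0 genes, with 366 at an unadjusted p under 0.05, and limma voom with sample quality weights called 0, with 603. The libraries of the genotypes did not overlap for 244 genes (2.34%). Log2 fold changes had a median of -0.01 and quartiles of -0.18 and 0.15. A difference of more than 2-fold was estimated for 381 genes, 119 higher and 262 lower.

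What these 8 libraries could resolve depended on level. The biological coefficient of variation was 0.345 in WT and 0.344 in aPIK3CD, close to each other. For the 550 genes with a mean of at least 300 CPM, the 95% interval (limma voom) stayed within 2-fold for 100% and within 1.5-fold for 97.8%. Among 2841 genes from 100 to 300 CPM it stayed within 2-fold for 98.7%, and among 3706 genes from 30 to 100 CPM for 76.6%. For 2109 genes from 10 to 30 CPM the share was 14.2%, and for 1215 genes under 10 CPM it was 0%. Over all genes, 6493 (62.3%) had an interval within 2-fold. Intervals were thus widest in genes of low level, and a p above the threshold does not show that a gene was equal.

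**Figure D1:**
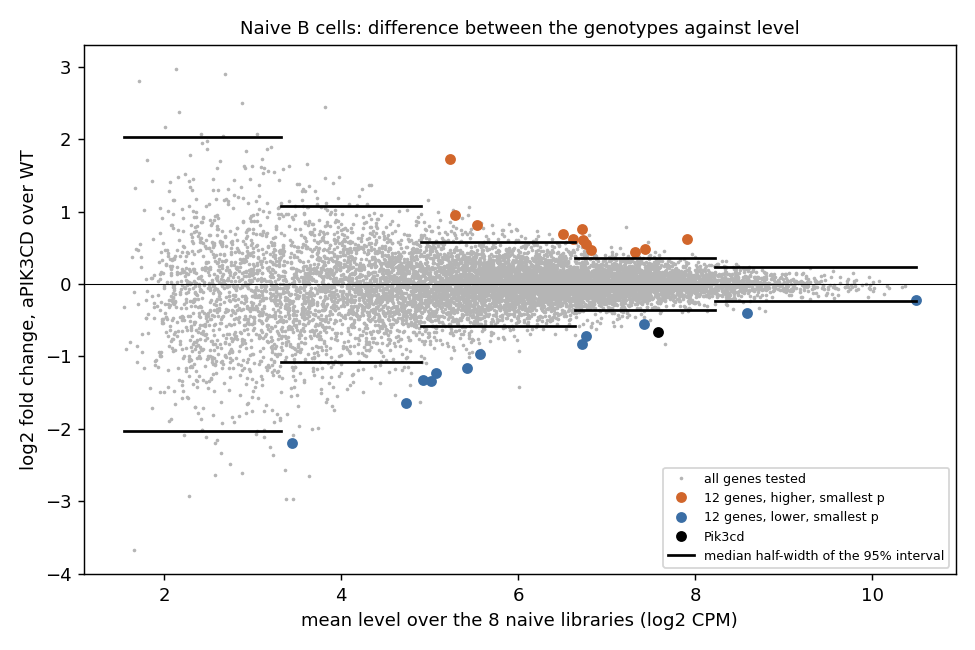
Log2 fold change of aPIK3CD over WT (vertical) against mean level in log2 CPM (horizontal) for the 10421 genes tested in naive B cells; black steps give the median half-width of the 95% interval in 5 classes of level, coloured points the 12 genes in each direction with the smallest p, and the black point Pik3cd. The steps narrow from 2.03 under 10 CPM to 0.23 at 300 CPM and above, and genes far from 0 lie mostly at low levels.

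The kinase gene itself came first among the PI3K subunits. Pik3cd (ENSMUSG00000039936) measured 134, 395, 170.3 and 235 CPM in WT replicates 1 to 4 and 117, 211, 97.0 and 165 CPM in aPIK3CD replicates 1 to 4. Its log2 fold change was -0.67 (SE 0.32), with a 95% interval of -1.34 to 0.03. The groups overlapped, and WT replicate 2 was the highest library, without which the log2 fold change was -0.29. Since the labels do not describe the activating change, the level of the transcript does not check the genotype.

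The other PI3K genes were examined from a list of 18 subunits, adaptors and lipid phosphatases, of which 14 were tested and 0 passed in either direction. Their median log2 fold change was -0.02, beside -0.01 over all genes, with 7 positive (background 48.3% of all genes tested) and 7 negative. Pik3r1, the main regulatory subunit p85α, measured 102, 117, 143 and 129 CPM in WT and 88.8, 90.5, 109 and 106 CPM in aPIK3CD. This is a log2 fold change of -0.31 (SE 0.17), and the groups overlapped. Pik3r2, which encodes p85β, measured 6.20, 77.7, 27.4 and 57.4 CPM in WT and 16.04, 25.6, 10.9 and 27.0 CPM in aPIK3CD, a log2 fold change of -1.09 (SE 0.58) with an interval of -2.26 to 0.65. The WT libraries spread over more than the whole aPIK3CD range.

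The other catalytic subunits did not pass either. Pik3ca, encoding p110α, measured 118, 78.8, 138 and 151 CPM in WT and 156, 128, 118 and 112 CPM in aPIK3CD, a log2 fold change of 0.08 (SE 0.21) with an interval of -0.32 to 0.58. Pik3cg, encoding p110γ, differed by 0.03 (SE 0.29) and ranged from 62.6 to 203 CPM within aPIK3CD alone. Pik3cb, encoding p110β, was below the filter, at 2.61 to 9.81 CPM in WT and 0 to 1.25 CPM in aPIK3CD.

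Lipid phosphatases of the pathway also gave no call. Inpp5d, encoding SHIP1, had a log2 fold change of -0.15 (SE 0.22) and an interval of -0.60 to 0.32. Inpp4b, which acts on the lipid that SHIP1 makes, had -0.06 (SE 0.22). The adaptor Pik3ap1 (BCAP), which couples the antigen receptor to PI3K, had -0.07 (SE 0.33).

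Below the kinase, 22 of 23 core genes of the AKT and mTOR pathway were tested and 0 passed. The median log2 fold change was -0.03, with 10 positive (background 48.3% of all genes tested) and 12 negative. Rps6kb1 and Akt1 were the 2 members with an unadjusted p under 0.05 (9.09%, beside 3.06% of all genes tested). Rps6kb1, the S6 kinase that mTORC1 phosphorylates, measured 154, 164, 161 and 137 CPM in WT and 199.5, 188, 190.3 and 176 CPM in aPIK3CD. All 4 aPIK3CD libraries lay above all 4 WT libraries, and the log2 fold change was 0.29 (SE 0.12). With aPIK3CD replicate 1 counted as WT it was 0.18. Akt1 measured 53.7, 65.0, 101 and 116 CPM in WT and 116, 145, 108 and 115 CPM in aPIK3CD. The log2 fold change of Akt1 was 0.53 (SE 0.24), and the groups overlapped because WT replicate 4 lay within the aPIK3CD range. The mTORC1 subunits Mlst8 and Rptor had log2 fold changes of 0.67 (SE 0.44) and -0.75 (SE 0.52).

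FOXO factors and genes that FOXO1 is known to maintain were the transcripts nearest to the pathway. Of 23 listed genes 21 were tested, 0 passed, and the median log2 fold change was 0.11. It was positive in 16 (background 48.3% of all genes tested) and negative in 5. Foxo1 was the 1 member with an unadjusted p under 0.05 (4.76%, beside 3.06% of all genes tested). Foxo1 measured 292, 329, 287 and 289.9 CPM in WT and 349, 372, 338 and 349.6 CPM in aPIK3CD. The groups did not overlap, and the log2 fold change was 0.23 (SE 0.09) with an interval of 0.02 to 0.43. Sesn1 and Sesn3, stress-induced inhibitors of mTORC1, had log2 fold changes of 0.20 (SE 0.11) and 0.29 (SE 0.17), and their groups overlapped.

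The intervals of the homing genes of this list stayed well within 2-fold. Ccr7, the chemokine receptor for entry into lymphoid tissue, measured 655, 516, 528 and 554 CPM in WT and 621, 633, 612 and 602 CPM in aPIK3CD, a log2 fold change of 0.13 (SE 0.09). Klf2, the transcription factor of quiescence and trafficking, differed by 0.09 (SE 0.15, interval -0.23 to 0.40). S1pr1, the receptor for exit into blood and lymph, differed by -0.01 (SE 0.10). Summed over the list, the level was 4306 to 4746 CPM in WT and 4796 to 4897 CPM in aPIK3CD, so every aPIK3CD library lay above every WT library. The sums of 2 of 32 lists lay wholly higher in aPIK3CD in this way and that of 1 list wholly lower.

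**Figure D2:**
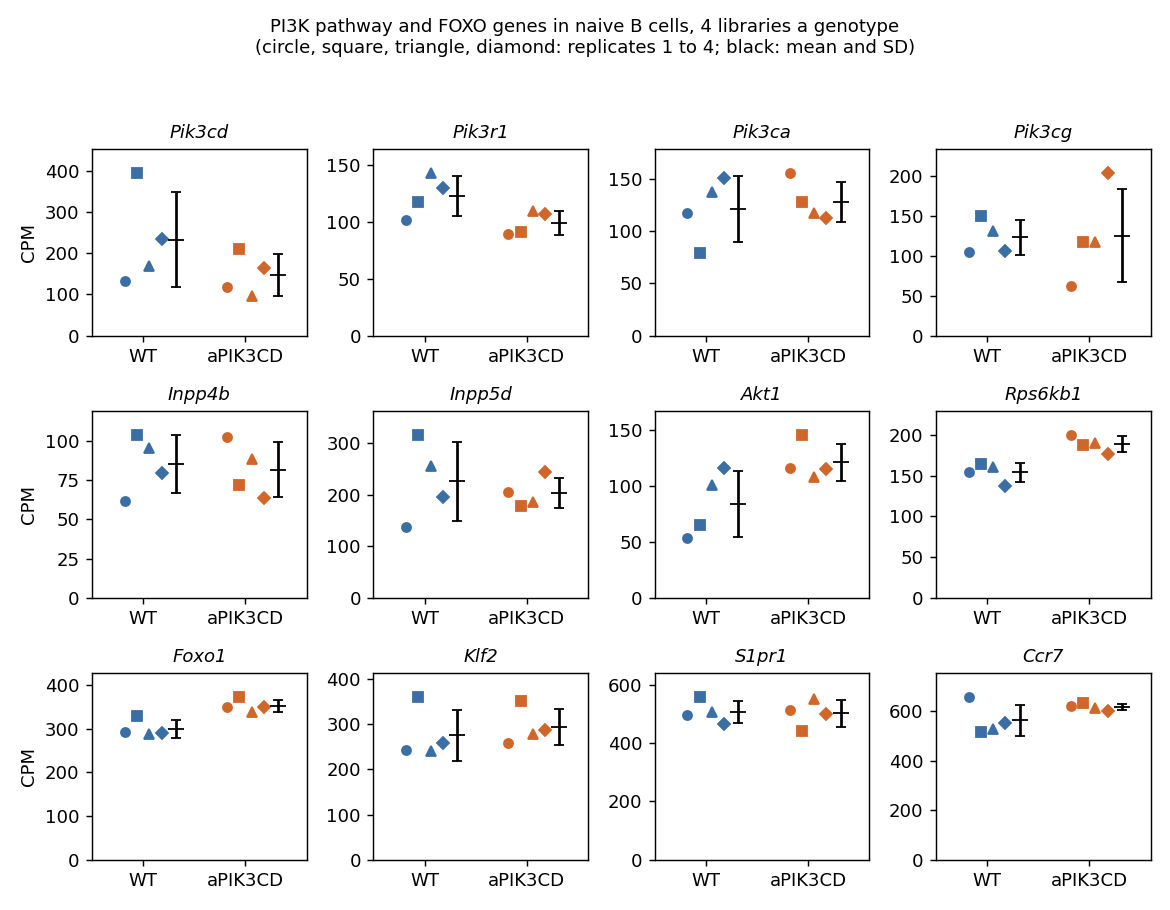
Level in CPM (vertical, from 0) of 12 genes of the PI3K pathway and of FOXO1 in each naive library of WT (blue) and aPIK3CD (orange), with mean and SD of 4 libraries in black. Rps6kb1 and Foxo1 are the panels without overlap between the genotypes, and the WT replicate 2 square is the highest point of Pik3cd at 395 CPM.

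Growth and metabolic targets of mTORC1 and MYC gave no call. Of 25 mTORC1 signalling targets tested, 0 passed, and the median log2 fold change was 0.08, with 18 positive (background 48.3% of all genes tested). Sqle, squalene epoxidase of cholesterol synthesis, measured 38.2, 38.1, 52.1 and 44.0 CPM in WT and 85.7, 35.4, 70.3 and 73.3 CPM in aPIK3CD. This is a log2 fold change of 0.62 (SE 0.28), with aPIK3CD replicate 2 below every WT library. The cholesterol synthesis list had 17 of 20 tested genes positive (background 48.3%), a median of 0.10 and 0 passing.

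Among MYC targets and ribosome biogenesis genes, 0 of 27 tested passed, the median was 0.05, and 18 were positive (background 48.3%). Rrp12, a factor of ribosome assembly and export, measured 2.07, 14.5, 12.9 and 13.5 CPM in WT and 20.3, 19.2, 33.9 and 34.9 CPM in aPIK3CD. The groups did not overlap (log2 fold change 1.32, SE 0.53). Myc itself differed by 0.05 (SE 0.15, interval -0.27 to 0.35). Glycolysis genes had a median of 0.00 with 0 of 16 passing, and Aldoc, an aldolase, had the smallest p of that list at a log2 fold change of 0.81 (SE 0.38). The 74 cytosolic ribosomal protein genes tested had a median of 0.05. The 75 nuclear genes of oxidative phosphorylation had a median of -0.02, and 70 of them had an interval within 2-fold.

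For genes of antigen receptor signalling, 24 of 26 intervals stayed within 2-fold. Their median log2 fold change was -0.01, 10 were positive (background 48.3%), and 0 passed. Btk, the kinase that PIP3 recruits, measured 228, 324, 283 and 254 CPM in WT and 303, 294, 324 and 374 CPM in aPIK3CD, a log2 fold change of 0.25 (SE 0.13) with overlapping groups. Syk, which starts the signal, differed by 0.13 (SE 0.13). Immediate early and activation genes had a median of -0.01 over 19 tested, 0 passing. Dusp2, an activation-induced phosphatase of MAP kinases, measured 381, 296, 407 and 349 CPM in WT and 442, 422, 399 and 425 CPM in aPIK3CD (log2 fold change 0.24, SE 0.11). One WT library, replicate 3, exceeded the lowest aPIK3CD library. The summed level of this list was 3084 to 3381 CPM in WT and 3397 to 3510 CPM in aPIK3CD. Nr4a1, a reporter of recent antigen receptor signalling, ranged from 15.5 to 61.4 CPM in WT and from 8.999 to 58.5 CPM in aPIK3CD.

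Genes that sense or answer infection also gave no call. In the interferon list 0 of 31 tested genes passed, and the median was 0.04. Oas1a, an interferon-induced sensor of double-stranded RNA, had a log2 fold change of 0.67 (SE 0.26) from 24.3 to 36.7 CPM in WT and 41.5 to 58.1 CPM in aPIK3CD. Rsad2, another interferon-induced gene, had a negative value of -1.04 (SE 0.62), with 6.71 to 67.5 CPM within WT.

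Of the Toll-like receptor genes, 0 of 15 tested passed, and the median was 0.09. Tlr4, the receptor for lipopolysaccharide, measured 42.4, 51.6, 45.8 and 19.6 CPM in WT and 54.0, 61.1, 69.0 and 77.1 CPM in aPIK3CD (log2 fold change 0.71, SE 0.29). The groups did not overlap. Unc93b1, the chaperone of endosomal Toll-like receptors, differed by 0.22 (SE 0.09), from 519.6 to 681 CPM in WT and 635 to 716 CPM in aPIK3CD. Cd180, a Toll-like receptor relative of B cells, had -0.38 (SE 0.20) and overlapping groups.

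In the BCL2 family 0 of 11 tested genes passed, and the median was -0.18. Pmaip1, encoding the death-promoting protein NOXA, measured 54.7, 29.0, 35.6 and 57.9 CPM in WT and 78.6, 53.8, 97.0 and 52.0 CPM in aPIK3CD, a log2 fold change of 0.67 (SE 0.30). Bcl2, which protects resting lymphocytes, measured 160.1, 225, 192 and 166 CPM in WT and 171, 132, 136 and 151 CPM in aPIK3CD, a log2 fold change of -0.33 (SE 0.15). In both genes the groups overlapped. Mcl1, another survival gene, differed by 0.11 (SE 0.09). Among 27 autophagy genes, Rb1cc1, a scaffold of the initiating ULK complex, was 147, 155, 203 and 159 CPM in WT and 130.3, 139, 125 and 93.8 CPM in aPIK3CD. The groups did not overlap (log2 fold change -0.44, SE 0.17), and 0 genes of the list passed.

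All 12 genes of the MHC class II pathway had a negative log2 fold change, from -0.37 to -0.00, and 0 passed. Over all 10421 genes tested, 5387 were negative. Of these 12 genes 10 had their highest level in WT replicate 1 and 10 their lowest in WT replicate 2, so the range lay within WT. The 9 tested immunoglobulin constant genes and the 9 tested mitochondrially encoded genes were also all negative, with medians of -0.08 and -0.11 and 0 passing. Both lists had their highest sum in WT replicate 1. The immunoglobulin sums were 3244 to 4427 CPM in WT and 3463 to 3794 CPM in aPIK3CD. The mitochondrial sums were 3624 to 5262 CPM in WT and 3399 to 4421 CPM in aPIK3CD. Among variable segments, 0 of 76 Ighv and 0 of 90 Igkv genes tested passed. An estimate beyond 2-fold was made for 11.8% of the Ighv and 8.89% of the Igkv segments, beside 3.66% of all genes tested. Their median SEs were 0.55 and 0.40, beside 0.27 over all genes.

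Markers of other B cell stages were present at low to moderate levels. The 8 germinal centre markers summed to 131 to 155 CPM in WT and 97.5 to 130 CPM in aPIK3CD. The sums did not overlap, but the lowest WT sum, 130.7 CPM, and the highest aPIK3CD sum, 129.8 CPM, were close. Of these markers 5 were tested and 0 passed. The log2 fold change was positive in 1 (background 48.3% of all genes tested) and negative in 4, with a median of -0.17. Mki67, a marker of cycling cells, measured 8.78, 11.3, 12.5 and 53.1 CPM in WT and 1.96, 16.2, 3.35 and 0 CPM in aPIK3CD, a log2 fold change of -1.99 (SE 0.99). The groups overlapped through aPIK3CD replicate 2, without which the value was -3.57, and without WT replicate 4, the highest library, it was -1.01. Bcl6, the germinal centre transcription factor, differed by -0.17 (SE 0.43) and Fas by -0.03 (SE 0.41). Neil1, the positive member, differed by 0.23 (SE 0.35). The cell cycle list had a median of -0.04 with 0 of 24 passing, and its sum was 1321 to 1923 CPM in WT and 1525 to 1720 CPM in aPIK3CD.

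Jchain, the joining chain of polymeric antibody, measured 102, 9.44, 36.4 and 31.3 CPM in WT and 16.4, 17.5, 11.7 and 11.8 CPM in aPIK3CD (log2 fold change -1.63, SE 0.57). WT replicate 1 was the highest library, and without it the value was -0.83. The plasma cell genes Xbp1 and Irf4 differed by 0.06 (SE 0.12) and -0.14 (SE 0.15). The plasma cell marker Tnfrsf17 had no more than 0.391 CPM in any library. Of 8 marginal zone markers 7 were negative (background 5387 of 10421 genes), with a median of -0.19 and 0 passing. Among them S1pr3, a sphingosine receptor, ranged from 10.3 to 63.2 CPM in WT and from 1.28 to 34.0 CPM in aPIK3CD. Dendritic cell markers summed to 77.1 to 202 CPM in WT and 17.99 to 88.4 CPM in aPIK3CD, mostly Siglech of plasmacytoid dendritic cells, at 69.7, 169.9, 56.8 and 78.8 CPM against 82.5, 31.6, 0 and 25.4 CPM. The part of these traces in other differences was not tested.

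**Figure D3:**
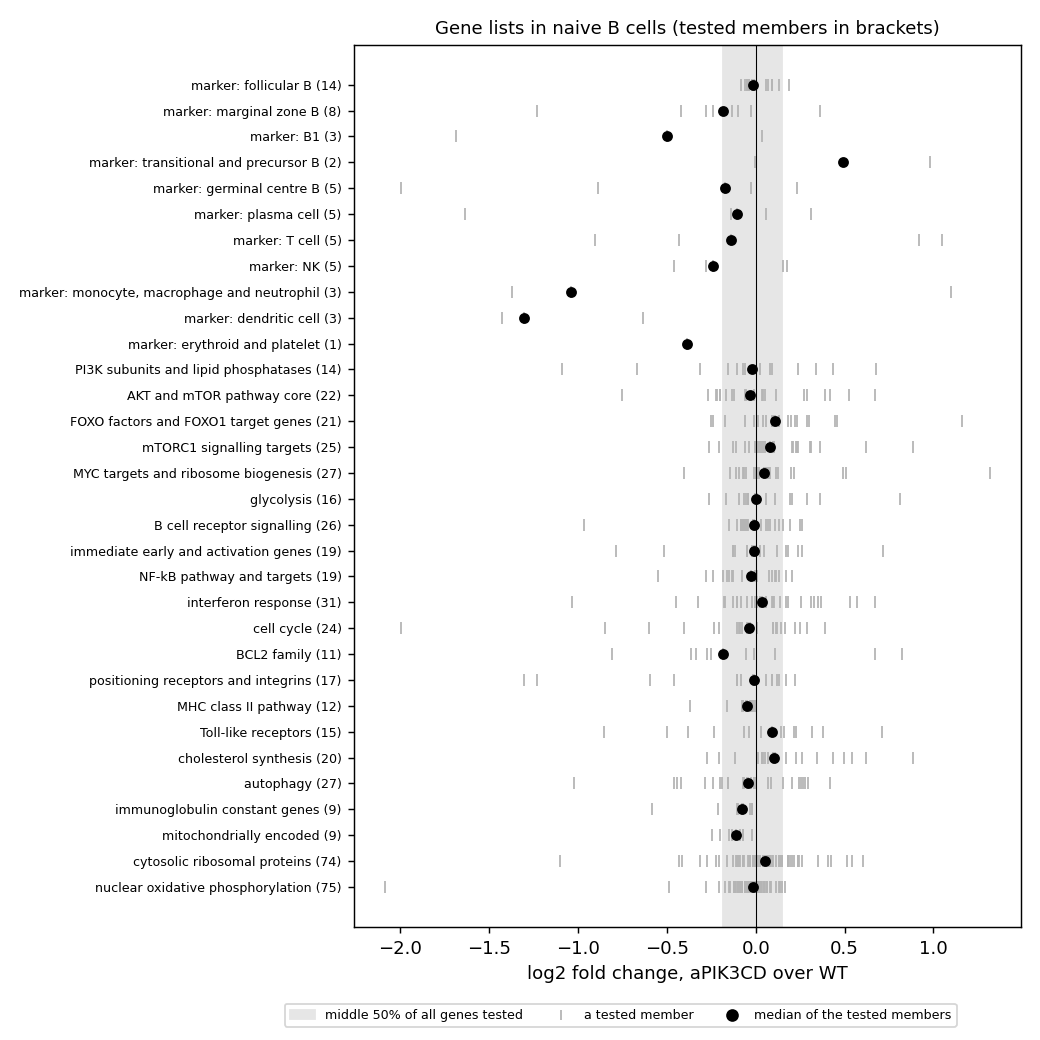
Log2 fold change of aPIK3CD over WT in naive B cells for each tested member (grey ticks) and its median (black) in 32 gene lists, with the number tested in brackets; the grey band holds the middle 50% of all genes tested, from -0.18 to 0.15. Medians outside or at the edge of the band belong to lists of few or weakly expressed members, such as the dendritic cell list at -1.30 over 3 genes, and to the BCL2 family and marginal zone lists at its lower edge.

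Genes with the smallest p were then named in each direction, 12 higher and 12 lower with a mean of at least 10 CPM in the higher group. They were chosen for this difference, so their values describe it and no list was tested. Serpina3f, a mouse serine protease inhibitor, measured 17.0, 28.0, 7.83 and 17.0 CPM in WT and 54.8, 50.8, 33.5 and 92.3 CPM in aPIK3CD. The log2 fold change was 1.72 (SE 0.41, interval 0.75 to 2.79), and the groups did not overlap. Serpina3g of the same gene family measured 146, 176, 216 and 223 CPM in WT and 351, 202, 246 and 369 CPM in aPIK3CD, a log2 fold change of 0.62 (SE 0.20) with overlapping groups. Serpina3 genes have near-identical copies, between which the counting could have split reads, so both values are uncertain.

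Kif2a, a kinesin that takes microtubule ends apart, measured 29.96, 22.9, 27.4 and 26.1 CPM in WT and 48.5, 49.97, 55.6 and 52.8 CPM in aPIK3CD (log2 fold change 0.96, SE 0.24). Both groups were tight, with SDs of 2.95 and 3.15 CPM. Gfm1, a mitochondrial translation elongation factor, measured 71.8, 65.0, 65.8 and 76.2 CPM in WT and 92.7, 108, 109.6 and 140.1 CPM in aPIK3CD (log2 fold change 0.69, SE 0.18). Cdk17, a cyclin-dependent kinase, measured 115, 139.8, 136 and 149 CPM in WT and 189, 173, 189 and 184 CPM in aPIK3CD (log2 fold change 0.44, SE 0.13). No library of one genotype entered the range of the other in these 3 genes. The rest of the 12 were Slc7a6os, Anks3, Arhgap12, Ccdc117, Ckap4, Shoc2 and Smpd1, and the 12 spanned log2 fold changes of 0.44 to 1.72.

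Gcfc2 (ENSMUSG00000035125) had the smallest p of all genes. It measured 28.4, 42.8, 36.0 and 54.0 CPM in WT and 13.3, 12.0, 11.3 and 15.2 CPM in aPIK3CD, a log2 fold change of -1.64 (SE 0.33). The lowest WT library was above the highest aPIK3CD library. Tubgcp5, of the γ-tubulin ring complex, measured 147, 142, 110.4 and 143 CPM in WT and 96.2, 65.8, 60.2 and 83.5 CPM in aPIK3CD (log2 fold change -0.82, SE 0.19). Ufl1, the ligase that attaches UFM1 to proteins, measured 151, 127, 141 and 123 CPM in WT and 93.1, 79.0, 61.9 and 95.3 CPM in aPIK3CD (log2 fold change -0.72, SE 0.18). Both had groups that did not overlap.

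Ctsl, the lysosomal protease cathepsin L, measured 37.2, 43.6, 43.5 and 50.5 CPM in WT and 26.6, 12.4, 11.7 and 18.6 CPM in aPIK3CD (log2 fold change -1.33, SE 0.34). Bace1, β-secretase, had the largest fold of the 24, at 27.4, 14.9, 16.4 and 13.1 CPM in WT and 4.69, 1.71, 4.18 and 4.94 CPM in aPIK3CD (log2 fold change -2.19, SE 0.56). Apaf1, the scaffold of the apoptosome, measured 35.1, 57.0, 54.8 and 39.2 CPM in WT and 25.8, 23.1, 8.37 and 15.9 CPM in aPIK3CD (log2 fold change -1.35, SE 0.37). Ptprc, which encodes the phosphatase CD45, was the most precisely measured of these genes. It stood at 1545, 1652, 1493 and 1511 CPM in WT and 1303, 1363, 1392 and 1277 CPM in aPIK3CD, a log2 fold change of -0.22 (SE 0.06). The remaining lower genes were Cep85l, Etnk1, Atp8b2, Adamts6 and the scavenger receptor Cd36.

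**Figure D4:**
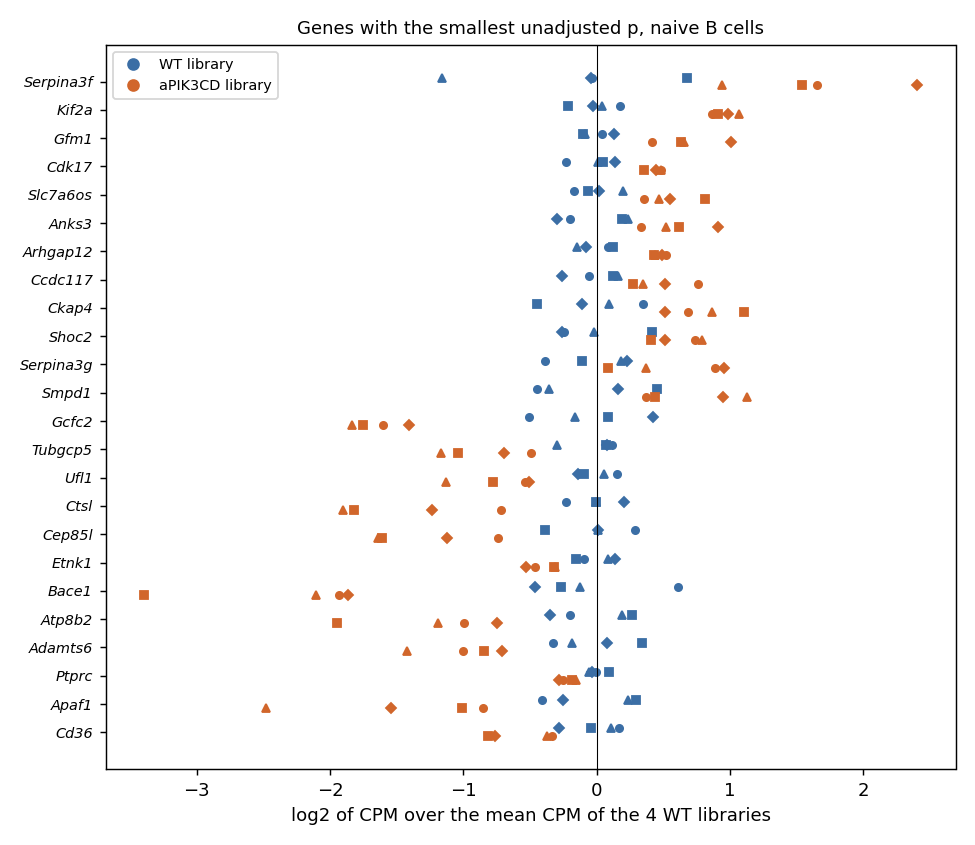
Level in each naive library as log2 of CPM over the mean of the 4 WT libraries (horizontal) for the 12 higher and 12 lower genes with the smallest unadjusted p; marker shape gives the replicate number (circle, square, triangle and diamond for 1 to 4). The genotypes overlap in Shoc2, Serpina3g and Smpd1 among the higher genes and in 0 of the lower genes. The genes were chosen for a small p, which favours such separation, so this is not a test.

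The same 24 genes were read in the other populations, whose libraries played no part in choosing them. The labels do not say whether those libraries came from the same mice, so they may not be independent of the naive ones. Shares of equal sign over all genes are not given here, so the counts of signs have no background. In dark zone B cells 21 were tested, 12 had the sign seen in naive cells and 5 had a p under 0.05 (background 7.5% of 9539 genes), all 5 with that sign. Without the shallow dark zone library 22 were tested, 12 had that sign and 4 had a p under 0.05 (background 7.77% of 9889 genes), all 4 with it. In light zone B cells 16 of 23 had the same sign and 2 had a p under 0.05 (background 6.63%), 1 of them with it. In plasma cells 12 of 20 had the same sign and 7 had a p under 0.05 (background 23.3%), 6 of them with it. Passing the adjusted threshold were 0 of the 24 in each population, where 2 genes (0.021%) passed in the dark zone, 0 (0%) in the light zone and 249 (3.2%) in plasma cells. Without the shallow library 0 genes passed in the dark zone, with 768 at an unadjusted p under 0.05. Serpina3g had log2 fold changes of 0.76 (SE 0.36) in the dark zone (0.72 without the shallow library) and 0.80 (SE 0.24) in the light zone, and -0.27 (SE 0.15) in plasma cells. Serpina3f was 221 ± 34.7 CPM in WT plasma cells and 347 ± 72.0 CPM in aPIK3CD plasma cells (SD, n = 4 each), a log2 fold change of 0.65 (SE 0.17, edgeR adjusted p = 0.0603). Gcfc2 differed by -0.10 (SE 0.30) in the dark zone and -0.31 (SE 0.32) in the light zone.

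Plasma cells were the population with the most calls, 249 of 7771 genes tested, 154 higher and 95 lower in aPIK3CD. Of these genes 236 were also tested in naive B cells, and 0 passed there. In naive cells the median log2 fold change was 0.05 for the genes higher in plasma cells, where it was 0.77, and -0.08 for the genes lower in plasma cells, where it was -0.89. The sign was shared by 152 of the 236 genes (64.4%). The share over all genes is not given here, so this count has no background. The naive interval excluded the plasma cell estimate for 198 genes (83.9%). The 236 genes were chosen by their plasma cell values, and that estimate was taken without its own error. The share is therefore no test of a difference. The direct test of the difference, given below, passed 4 of 10643 genes. An unadjusted p under 0.05 in naive cells was reached by 12 of the 236 genes (5.08%, beside 3.06% of all genes), of which 11 had the plasma cell sign.

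Those 11 were Dnaja3, Dnajb1, Cars, Slc35b1, Stip1, Tm9sf2, Rnf4, Rpn1, Tmem184c, Unc93b1 and Kat7. Dnaja3, Dnajb1 and Stip1, which serve the HSP70 and HSP90 chaperones, had naive log2 fold changes of 0.45 (SE 0.19), 0.28 (SE 0.11) and 0.32 (SE 0.13), beside 0.85, 0.75 and 0.65 in plasma cells. Rpn1, a subunit of the oligosaccharyltransferase, had 0.37 (SE 0.16) in naive cells and 0.43 in plasma cells. These examples were picked out after their values were seen. Daglb, an enzyme that makes diacylglycerol into an endocannabinoid, had the opposite sign, at 41.3, 39.2, 34.8 and 37.0 CPM in naive WT and 28.6, 17.1, 17.99 and 24.3 CPM in naive aPIK3CD. The log2 fold change was -0.79 (SE 0.30) in naive cells and 1.75 in plasma cells.

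Of the genes with the largest plasma cell changes, several were well measured in naive cells. They were chosen for their change in plasma cells. Like Daglb, they were not among the 4 genes that passed the direct test of the difference between populations, given below. Cyb561a3, a lysosomal ferric reductase, differed by 0.01 (SE 0.13) in naive cells and by 1.78 in plasma cells. Ppp2r1b, a scaffold subunit of phosphatase 2A, differed by -0.01 (SE 0.19) and 1.62. Susd3 differed by -0.08 (SE 0.16) in naive cells and by -1.76 in plasma cells. Itpr1, the calcium channel opened by IP3, had -0.57 (SE 0.31) in naive cells, where the groups overlapped, and -2.46 in plasma cells. Il10, the regulatory cytokine, was among the genes higher in aPIK3CD plasma cells and had at most 0.418 CPM in any naive library.

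The difference between the genotype effect in naive B cells and that in another population was tested directly. Against plasma cells, 4 of 10643 genes passed (0.0376%), with 1094 (10.3%) at an unadjusted p under 0.05. Against dark zone cells 0 of 11328 (0%) and against light zone cells 0 of 11291 (0%) passed by edgeR, with 558 (4.93%) and 524 (4.64%) at an unadjusted p under 0.05 and with 8 and 11 called by DESeq2. Without the shallow dark zone library the dark zone count was again 0 by edgeR, with 606 at an unadjusted p under 0.05. Igkv3-4, a kappa variable segment, measured 156, 72.3, 95.9 and 77.9 CPM in naive WT and 86.9, 100.4, 111 and 98.7 CPM in naive aPIK3CD. In plasma cells it measured 858, 872, 678 and 785 CPM in WT and 6.37, 6.39, 20.6 and 12.5 CPM in aPIK3CD. The naive groups overlapped and the plasma cell groups were far apart, and the effects differed by 6.09 on the log2 scale (SE 0.39, edgeR adjusted p = 2.35e-08).

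Pld4, an endolysosomal exonuclease, measured 464, 532, 429 and 446 CPM in naive WT and 482, 359.6, 395 and 448 CPM in naive aPIK3CD, but 101 to 152 CPM in WT plasma cells and 246 to 339 CPM in aPIK3CD plasma cells. The naive effect minus the plasma cell effect was -1.38 (SE 0.21, edgeR adjusted p = 0.0108). Fcmr, the receptor for the Fc part of IgM, had naive values of 742 to 1030 CPM in WT and 804 to 855 CPM in aPIK3CD, and plasma cell values of 121 to 186 and 304 to 437 CPM. Its effects differed by -1.31 (SE 0.20, edgeR adjusted p = 0.0108). Cnpy3, a chaperone of Toll-like receptors, differed by -1.78 (SE 0.31, edgeR adjusted p = 0.0359), from 229 to 282 CPM over all naive libraries. Counting aPIK3CD replicate 1 as WT in both populations, as its genotype field reads, ended the call of all 4 genes, with edgeR adjusted p of 0.215 for Igkv3-4, 0.463 for Pld4, 0.495 for Fcmr and 0.609 for Cnpy3. Of 12 alternatives, that included, Cnpy3 lost its call in 9, Pld4 and Fcmr in 3 each and Igkv3-4 in 1. Pld4 lost it without WT replicate 2 or aPIK3CD replicate 2, and Fcmr without WT replicate 1 or aPIK3CD replicate 2. Pik3cd had log2 fold changes of -0.67 (SE 0.32) in naive cells and -0.68 (SE 0.20) in plasma cells, and 0.08 (SE 0.17) and -0.10 (SE 0.15) in dark and light zone cells.

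Foxo1, at 0.23 in naive cells, had log2 fold changes of -0.02 (SE 0.14) in the dark zone (0.01 without the shallow library), -0.27 (SE 0.12) in the light zone and -0.55 (SE 0.17) in plasma cells. The naive effect minus the plasma cell effect was 0.76 (SE 0.20, edgeR adjusted p = 0.182) and minus the light zone effect 0.51 (SE 0.14, adjusted p = 0.752), so neither difference passed.

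**Figure D5:**
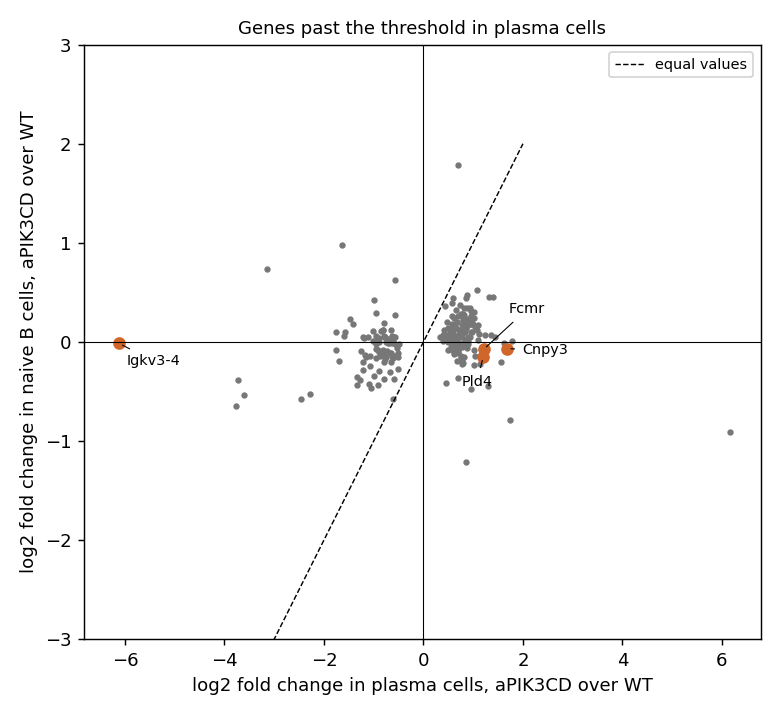
Log2 fold change of aPIK3CD over WT in naive B cells (vertical) against that in plasma cells (horizontal). Points are the 236 genes past the threshold in plasma cells and tested in naive cells. The dashed line marks equal values and orange points the 4 genes that passed the main test of the difference. Most points lie along the horizontal axis, with naive medians of 0.05 and -0.08 beside plasma cell medians of 0.77 and -0.89.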

How the data were processed

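The authors deposited raw counts, whole numbers for each of 53465 Ensembl genes, in 1 column for each of 32 libraries. STAR 2.4.2a, HTSeq and Picard are named, without roles, per the submitters' processing notes. The build was not given in the sources used here, so no coordinates are printed, and GENCODE M21 exon lengths served only for counts per base.

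The 8 naive libraries were fitted on their own in edgeR 4.0.16 under R 4.3.3, with TMM normalization, filterByExpr (minimum count 10, minimum total count 15), the two-sided quasi-likelihood F test and Benjamini-Hochberg adjustment over all genes (threshold 0.05). CPM values use TMM-scaled library sizes. SEs are the log2 fold change over the square root of F. The 95% intervals came from limma 3.58.1 (voom) and need not be centred on edgeR's estimate. DESeq2 1.42.0 was an alternative. Differences between populations were interaction terms over 16 libraries. The code was tested on simulated data.

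The members, gene lists and tests were chosen with earlier results of these data known. Genes named were Pik3cd, the 12 in each direction with the smallest p (mean of at least 10 CPM in the higher group, predicted genes and antigen receptor segments left out), up to 4 members of each list with the smallest p, all PI3K and cell marker members, the 10 in each direction with the largest plasma cell change, and up to 6 per interaction. Others were named after their values were seen. Some genes of this rule are not reported here, though list counts include them. P2ry8 was not analysed here. Same-numbered naive libraries of the genotypes did not deviate together (correlations 0.05, 0.08, 0.01 and -0.04). Between naive and other libraries of the same number and genotype the correlations ranged from -0.05 to 0.13.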

Additional observations from a re-analysis of the deposited data

Results flagged for a closer look

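Of 74 groups of 4 naive libraries examined for a library apart from its group, 2 had one, and chance gives about 1 in 20. Tubgcp5 measured 110.4 CPM in WT replicate 3, below 142 to 147 CPM in the other WT libraries. The dendritic cell markers summed to 202 CPM in WT replicate 2, above 77.1 to 96.2 CPM in the other WT libraries.

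In 4 genes the genotype effect differed between naive B cells and plasma cells by the main test of the difference itself. All 4 lost the call with aPIK3CD replicate 1 counted as WT. Of 12 alternatives, that included, Cnpy3 lost it in 9, Pld4 and Fcmr in 3 each and Igkv3-4 in 1. The naive minus the plasma cell log2 fold change was 6.09 for Igkv3-4, -1.38 for Pld4, -1.31 for Fcmr and -1.78 for Cnpy3 (edgeR adjusted p = 2.35e-08, 0.0108, 0.0108 and 0.0359).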

How the results depend on the processing

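The count of 0 genes in naive B cells held with DESeq2 size factors, DESeq2, limma voom, no filter, without antigen receptor genes, with the replicate block, with aPIK3CD replicate 1 counted as WT and without each library. A single fit over all 8 groups called 8. Naive minus plasma cells, 4 genes by the main test, gave 7 in the single fit, 70 with DESeq2, 1 with aPIK3CD replicate 1 counted as WT (none of those 4), and 1 to 7 without 1 replicate. Naive minus dark zone gave 4 in the single fit, 8 with DESeq2 and 0 to 3 without 1 replicate, and naive minus light zone gave 3, 11 and 0 to 1, and 1 with aPIK3CD replicate 1 counted as WT. The cause was not tested. The difference in total counts, 90858 higher in aPIK3CD, ranged from -56583.8 without WT replicate 1 to 228583 without WT replicate 2. The log2 fold change of Pik3cd with the replicate block was -0.61, and the block changed the call of Cnpy3 alone among the named results. Pik3cd kept its sign in all 16 alternatives. Of the named genes not chosen for a small p over all genes, 50 of 157 changed sign in at least 1. What depth alone limited was not tested.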

Other observations

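A single fit over all 8 groups, which borrows the spread of the other populations, called 8 genes in naive B cells, 6 lower and 2 higher in aPIK3CD. They are named because that fit called them. Gcfc2 and Serpina3f were among them, with edgeR adjusted p of 0.0147 and 0.0399. The cell cycle list had 0 of 24 tested genes called in the fit of the naive libraries alone and a median of -0.04. Cdc6, which loads the replicative helicase, measured 0, 6.90, 16.4 and 4.35 CPM in naive WT replicates 1 to 4 and 0, 0, 0.418 and 0 CPM in aPIK3CD. Hist1h1b, a linker histone made in S phase, measured 6.20, 4.72, 8.22 and 4.35 CPM in WT and 0, 1.71, 0 and 0 CPM in aPIK3CD. Fanci, of the Fanconi anaemia repair pathway, measured 0.516, 9.44, 5.09 and 9.57 CPM in WT and 0, 0, 0 and 0.380 CPM in aPIK3CD.

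Angptl4, a secreted inhibitor of lipoprotein lipase, measured 9.81, 1.09, 7.83 and 5.66 CPM in WT and 0 in all 4 aPIK3CD libraries. Gm13684, a predicted gene, measured 1.57 to 9.14 CPM in WT and 0 in aPIK3CD. Armcx6, higher in aPIK3CD like Serpina3f, measured 0 in all 4 WT libraries and 5.48, 0.854, 4.60 and 3.80 CPM in aPIK3CD. Of the 8 genes, 5 were too low for the fit of the naive libraries alone. Cdc6, Hist1h1b, Fanci, Angptl4, Gm13684 and Armcx6 averaged under 10 CPM, where no interval in naive B cells stayed within 2-fold. Of the 24 tested genes of the cell cycle list, 13 had an interval within 2-fold. Some subunits of the replicative helicase itself had such an interval and were picked out after their values were seen. Mcm3 differed by 0.10 (SE 0.15), Mcm4 by -0.09 (SE 0.16) and Mcm6 by 0.01 (SE 0.19).

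Cox6a2, a subunit of cytochrome c oxidase, had the smallest p of the oxidative phosphorylation genes. It measured 22.2, 24.3, 11.4 and 13.5 CPM in WT and 5.48, 3.84, 0.418 and 6.83 CPM in aPIK3CD, a log2 fold change of -2.09 (SE 0.69). The groups did not overlap. In WT replicates 1 to 4, Siglech of plasmacytoid dendritic cells measured 69.7, 169.9, 56.8 and 78.8 CPM. In aPIK3CD replicates 1 to 4 it measured 82.5, 31.6, 0 and 25.4 CPM. The part of other cell types in the difference of Cox6a2 was not tested.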
